A study of Meriones unguiculatus with 18 samples.

Results

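Ass1, Hpd, Tdo2, Abat and Glud1 are 5 liver genes of urea synthesis and amino acid breakdown, described here in male Mongolian gerbils (Meriones unguiculatus), a desert rodent in which the study modelled fatty liver disease. They were taken by name from a table of 13172 unigenes, each the longest transcript of a cluster in a transcriptome assembled without a genome. Of these unigenes 3767 carried a gene name. Each of the 5 names was carried by 1 unigene, so 5 of 3767 named unigenes are the subject, and all 5 were above the lowest value of the library in all 12 libraries used. The gerbils were fed a normal diet (ND), the ordinary feed, or a high-fat diet (HFD) for 4 weeks (4W) or 16 weeks (16W), with 3 liver libraries in each of these 4 groups. To make the HFD, 2% cholesterol, 0.5% bile salt, 7% of an item listed as lard bile and 10% egg yolk powder were added to ordinary feed, which made up 80.5%. No transgene, mutant or drug is named for any group. In the 8-week libraries the values did not follow those of the other libraries unigene by unigene, so that their columns could not be read through the gene names, and no value of them is given for any gene below.

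Breakdown of amino acids releases ammonia and amino groups, which the liver turns into urea. Amino groups are collected on glutamate and aspartate, glutamate dehydrogenase frees ammonia from glutamate, and the urea cycle, which runs between the mitochondria and the cytosol of hepatocytes, takes up ammonia and aspartate. The carbon skeletons of tyrosine, tryptophan and other amino acids pass through their own chains of enzymes, many of which are found mainly in liver.

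The deposited values are normalized expression levels in which all libraries share nearly the same set of sorted values, so a value stands for a rank within its library. Sequencing depth is therefore unknown, and the abundance unit behind the ranks was not given in the sources used here. Levels are compared within a gene and never between genes. Log2 fold changes are of the value plus 1, each with its standard error (SE). They come from 1 limma fit to the 9487 unigenes whose mean over the 12 libraries was 1 or more. A gene was called where the adjusted p (limma, Benjamini-Hochberg over all unigenes tested) was under 0.05. Across the 9487 unigenes the median log2 fold change of HFD against ND was -0.03 at 4W and -0.12 at 16W, and it became 0.10 and 0.01 when the libraries were rescaled by their median ratios.

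The 12 libraries were not alike in ways that follow the groups. Unigenes at the lowest value numbered 3910 to 5273 in an ND library and 2053 to 3012 in an HFD library, a difference that cannot be told apart from diet. Of 27 hepatocyte markers 13 were found by name and 7 were detected in every one of the 12 libraries, among them ALB (albumin), which stood at the highest value of the table in all 6 ND libraries. Apoa2, AHSG, hpx, Ambp and Itih2, all of which encode proteins that liver secretes into plasma, were clearly above the lowest value in the HFD libraries numbered 1 of both times, and at the lowest value elsewhere. The fits were therefore repeated without the HFD libraries numbered 1. No cholangiocyte marker of 13 was found. In a bulk liver sample, fewer cells of a type and less RNA of a gene per cell cannot be told apart.

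Ass1 encodes argininosuccinate synthase, the urea cycle enzyme that joins citrulline to aspartate. Its unigene, TRINITY_DN35829_c0_g2, had normalized levels of 2423, 8090 and 4489 in the ND 4W libraries numbered 1, 2 and 3, and of 1522, 2138 and 2423 in the HFD 4W libraries. At 16W it stood at 5760, 1862 and 2911 in ND and at 792, 338 and 646 in HFD. All 3 HFD libraries of 16W lay below every other library, whereas at 4W the groups met at 2423, and the ND libraries spread over more than the difference between the group means. As ranks within the library, with 1 the highest, Ass1 stood at 3, 8 and 5 in ND and at 23, 60 and 29 in HFD at 16W. The group mean was 5000 ± 2868 (SD, n = 3) in ND and 2028 ± 460 in HFD at 4W, and 3511 ± 2017 in ND and 592 ± 232 in HFD at 16W. At 16W Ass1 fell by 2.50 on the log2 scale (SE 0.61, 95% interval -3.83 to -1.17, limma adjusted p = 0.0078), and the HFD mean was 16.9% of the ND mean. The 4W difference was -1.16 (SE 0.61, interval -2.49 to 0.17, limma adjusted p = 0.246) and was not called.

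Glud1 encodes the mitochondrial glutamate dehydrogenase, which releases ammonia from glutamate. TRINITY_DN35004_c0_g1 had levels of 113, 126 and 147 in ND and 148, 128 and 121 in HFD at 4W. The levels at 16W were 157, 182 and 148 in ND and 74.2, 46.7 and 74.2 in HFD. At 4W the groups overlapped, with means of 128 ± 17.1 and 132 ± 14.0 (SD, n = 3). At 16W they did not, with means of 162 ± 17.8 and 65.1 ± 15.9, and the HFD mean was 40.1% of the ND mean. Glud1 fell by 1.33 on the log2 scale at 16W (SE 0.20, interval -1.76 to -0.90, limma adjusted p = 0.000374). At 4W its difference was 0.05 (SE 0.20, interval -0.38 to 0.48, limma adjusted p = 0.915), so that the interval left room for a change of less than 0.5 on the log2 scale in either direction.

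Abat encodes 4-aminobutyrate aminotransferase, the mitochondrial enzyme that breaks down GABA and also acts in the breakdown of beta-alanine. TRINITY_DN31858_c0_g3 stood at 28.3, 35.4 and 30.3 in ND and at 14.6, 12.3 and 18.0 in HFD at 4W. It stood at 46.6, 43.3 and 38.1 in ND and at 2.52, 0.86 and 3.79 in HFD at 16W. The groups did not overlap at either time, and the 3 HFD libraries of 16W lay below the 3 HFD libraries of 4W. The means were 31.3 ± 3.65 and 15.0 ± 2.83 (SD, n = 3) at 4W and 42.7 ± 4.28 and 2.39 ± 1.47 at 16W, so that the HFD mean was 47.8% of the ND mean at 4W and 5.60% at 16W. Its rank within the library moved from between 317 and 375 in ND to between 2730 and 7603 in HFD at 16W. Abat fell by 1.03 on the log2 scale at 4W (SE 0.28, interval -1.64 to -0.41, limma adjusted p = 0.0359). It fell by 3.79 at 16W (SE 0.28, interval -4.40 to -3.17, limma adjusted p = 3.31e-06). The 16W fold of so low a level depends on the pseudocount and ranged from -4.32 to -2.71 over the 25 other settings tried on these 12 libraries. The 4W call was lost in 11 of these, with limma adjusted p from 0.0041 to 0.114 over all 25. Without ND 4W 1, 2 or 3 the adjusted p was 0.0698, 0.104 or 0.0819, without HFD 4W 1, 2 or 3 it was 0.0706, 0.114 or 0.0531, without ND 16W 2 it was 0.051, and the 4W difference stayed between -1.16 and -0.84 throughout.

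The assembly cluster of Abat held another unigene that had no name, TRINITY_DN31858_c0_g4. Its levels at 16W were 36.5, 37.0 and 35.7 in ND and 4.00, 1.69 and 4.06 in HFD, and it fell by 3.20 on the log2 scale (SE 0.24, limma adjusted p = 3.28e-06). Its 4W difference of -0.53 was not called (limma adjusted p = 0.173). A shared cluster does not make the unigenes 1 gene: TRINITY_DN31858_c0_g2 of the same cluster was named Itpr3, after an inositol trisphosphate receptor, and rose by 3.41 at 16W (limma adjusted p = 1.88e-05). In the clusters of Hpd and Glud1 no other unigene tested was called at 16W. That of Hpd, TRINITY_DN34659_c1_g3, was at -0.71 (limma adjusted p = 0.313). Those of Glud1 were TRINITY_DN35004_c0_g2 at -1.24 (limma adjusted p = 0.133) and TRINITY_DN35004_c0_g3, named Adnp, at -0.49 (0.0588).

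Hpd encodes 4-hydroxyphenylpyruvate dioxygenase, which acts early in tyrosine breakdown, after the amino group has been removed. TRINITY_DN34659_c1_g2 had levels of 945, 1335 and 1134 in ND and 842, 716 and 1335 in HFD at 4W. At 16W the levels were 2423, 1335 and 1522 in ND and 273, 115 and 407 in HFD. The 4W groups overlapped and even shared the value 1335, while at 16W the highest HFD library lay below the lowest library of every other group. The means were 1138 ± 195 and 964 ± 327 (SD, n = 3) at 4W and 1760 ± 582 and 265 ± 146 at 16W, where the HFD mean was 15.1% of the ND mean. Hpd fell by 2.86 on the log2 scale at 16W (SE 0.46, interval -3.86 to -1.86, limma adjusted p = 0.000638). At 4W the difference was -0.28 (SE 0.46, interval -1.28 to 0.72, limma adjusted p = 0.761).

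Tdo2 encodes tryptophan dioxygenase, the liver enzyme that opens the ring of tryptophan and starts the kynurenine pathway. TRINITY_DN35491_c1_g1 had levels of 159, 381 and 224 in ND and 207, 222 and 287 in HFD at 4W. Its levels at 16W were 627, 496 and 792 in ND and 191, 47.8 and 193 in HFD. The 4W groups overlapped entirely, the HFD libraries lying within the range of the ND libraries. At 16W the groups were apart, but 2 of the 3 HFD libraries lay within the range of ND 4W, and the ND 16W libraries were the highest of all. The means were 255 ± 114 and 238 ± 42.3 (SD, n = 3) at 4W and 639 ± 148 and 144 ± 83.1 at 16W, where the HFD mean was 22.5% of the ND mean. Tdo2 fell by 2.36 on the log2 scale at 16W (SE 0.49, interval -3.43 to -1.30, limma adjusted p = 0.003), and at 4W its difference was -0.02 (SE 0.49, interval -1.08 to 1.05, limma adjusted p = 0.989).

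**Figure D1:**
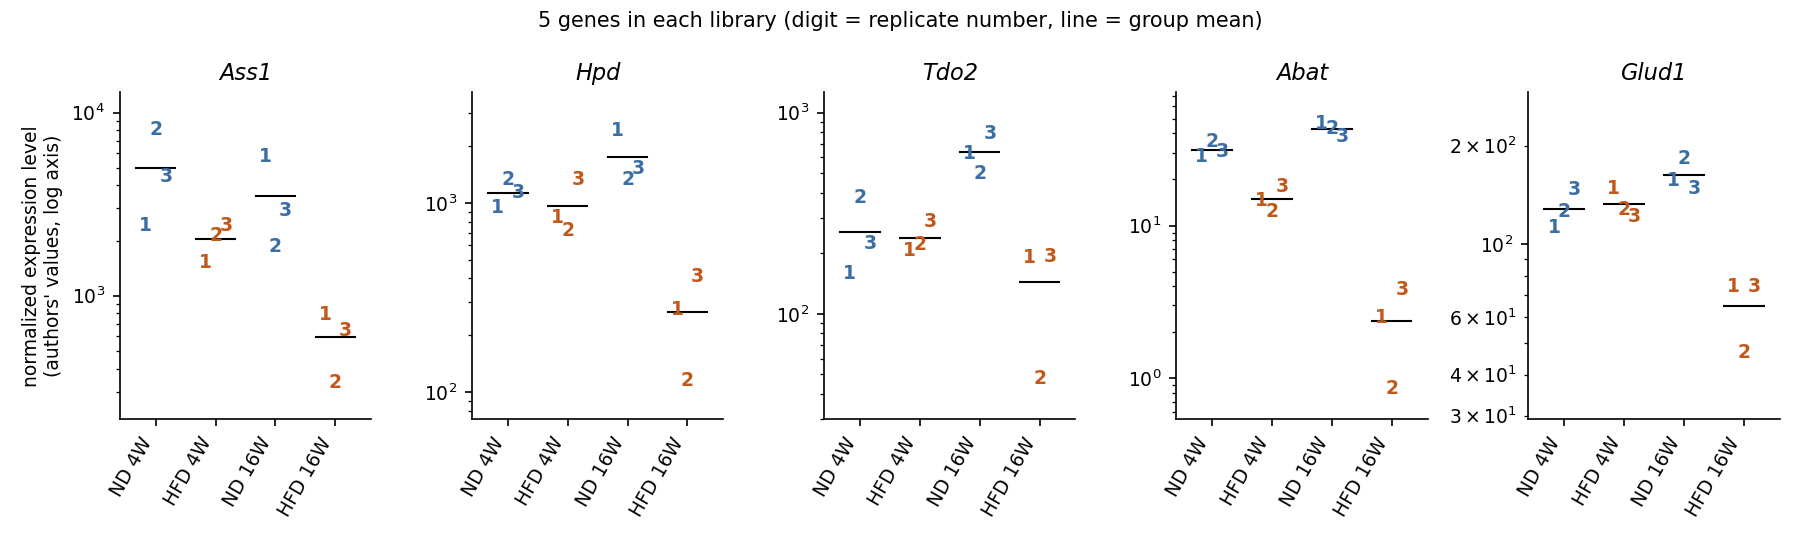
Normalized expression level of Ass1, Hpd, Tdo2, Abat and Glud1 (y axis, authors' values, log scale) in the 12 libraries by group (x axis). Each digit is the library of that replicate number, blue for ND and orange for HFD, and each line is the mean of 3 libraries. The 3 HFD libraries of 16W lie below the ND libraries of 16W for all 5 genes, and library 2 is the lowest of them in each panel.

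At 16W, then, 5 of 5 genes were called lower in HFD, where 19.9% of all 9487 unigenes were called lower and 15.3% higher. The 5 genes were chosen with earlier results of these data known, so these shares are context and not a test of the pathways. Among the 3377 tested unigenes that, like these 5, were detected in all 12 libraries, 27.0% were called lower. For 5 of 5 genes all HFD libraries of 16W lay below all ND libraries, as they did for 28.2% of all unigenes tested and for 35.3% of those detected in all 12 libraries. At 4W 1 of 5 was called lower (Abat) and none higher, where 7.22% of all unigenes were called lower and 4.89% higher, and the groups of 1 of 5 did not overlap, where 19.2% of all unigenes had every HFD library below every ND library. The median log2 fold change of the 5 was -0.28 at 4W and -2.50 at 16W, beside medians of -0.03 and -0.12 over all unigenes. The library HFD 16W 2 was the lowest of all 12 for 5 of 5 genes, and the share of all unigenes lowest there is not given. The median ratio of this library, over unigenes detected in all 12, was also the lowest, at 0.893 beside 0.926 to 1.16 in the others. Without HFD 16W 2 all 5 were still called at 16W, with log2 fold changes of -2.14 (Ass1), -2.35 (Hpd), -1.70 (Tdo2), -3.41 (Abat) and -1.11 (Glud1). Without the HFD libraries numbered 1 all 5 were called as well, with values from -3.87 for Abat to -1.44 for Glud1.

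Whether the diet difference itself changed from 4W to 16W was tested in the same fit. For 3 of 5 genes this was called: the difference of the log2 fold changes was -2.76 for Abat (SE 0.40, limma adjusted p = 0.00241), -2.58 for Hpd (SE 0.65, limma adjusted p = 0.0274) and -1.38 for Glud1 (SE 0.28, limma adjusted p = 0.0106). In this test 4.61% of all unigenes were called lower and 5.5% higher. For Ass1, which was already lower on average at 4W, the difference of -1.34 was not called (SE 0.86, limma adjusted p = 0.39). For Tdo2 it was -2.35 (SE 0.69, interval -3.86 to -0.84) and missed the threshold (limma adjusted p = 0.0531). The Tdo2 difference passed in 7 of the 24 other settings that give it, among them a replicate block within HFD (limma adjusted p = 0.0376) and the fits without ND 4W 2 (0.0381), HFD 16W 1 (0.0461) or HFD 16W 3 (0.0374). The call of Hpd did not hold without ND 4W 1 (limma adjusted p = 0.0623), ND 4W 3 (0.0563), HFD 4W 1 (0.0503), HFD 4W 3 (0.065), ND 16W 1 (0.0605) or the HFD libraries numbered 1 (0.0866). In these fits, which hold fewer libraries, the Hpd difference was between -2.76 and -2.32.

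**Figure D2:**
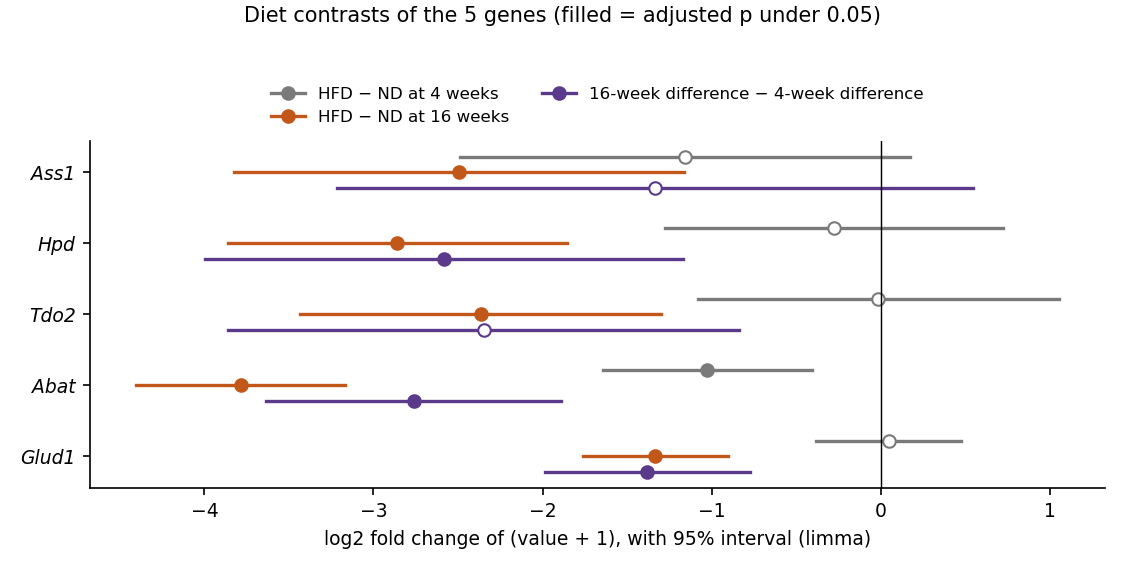
Log2 fold change of the value plus 1 (x axis) with its 95% interval from limma for the 5 genes (y axis). Grey is HFD against ND at 4 weeks, orange the same at 16 weeks and purple the difference between these, and filled points had an adjusted p under 0.05. The orange points are all filled and run from -3.79 (Abat) to -1.33 (Glud1), and Abat is the only filled grey point.

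Within the HFD, 3 of 5 genes were called lower at 16W than at 4W and the other two were not called, and this comparison shares its 16W libraries with the diet comparison above. The log2 change was -2.32 for Abat (limma adjusted p = 0.000276), -1.99 for Hpd (0.0108) and -1.04 for Glud1 (0.00326), where 7.78% of all unigenes were called lower and 9.19% higher. The call of Hpd was lost without the HFD libraries numbered 1 (limma adjusted p = 0.0631). By the data, replicate numbers pair the HFD libraries of 4W and 16W, which this fit did not take into account. With a replicate block within HFD the calls of the 5 genes were the same. Ass1 was at -1.83 (limma adjusted p = 0.0608) and Tdo2 at -0.96 (interval -2.03 to 0.11, limma adjusted p = 0.224). The Ass1 change passed in 5 of the 24 other settings, among them the fit without ND 4W 2 (limma adjusted p = 0.0432).

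On the normal diet none of the 5 was called between 4W and 16W by limma. The share of all unigenes called was also small, 0.169% lower and 0.211% higher. A larger share of all unigenes, 16.3%, had an unadjusted limma p under 0.05 in this comparison, in either direction. At an unadjusted p under 0.05, 1 of 5 passed, Tdo2, whose ND levels were higher at 16W in all 3 libraries (1.39 on the log2 scale, interval 0.32 to 2.46, unadjusted p = 0.0151, limma adjusted p = 0.182). From 4W to 16W Tdo2 thus changed by 1.39 in ND and by -0.96 in HFD, and neither change was called. For Abat and Glud1 the change in ND was 0.44 (limma adjusted p = 0.498) and 0.34 (0.437), for Hpd 0.59 (0.589) and for Ass1 -0.50 (0.773).

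The same comparisons were made for the other genes of these pathways, from a list of 129 genes of urea synthesis and amino acid breakdown that includes the 5. This list was also chosen with earlier results of these data known, so its counts do not test the pathways. Of the 129 genes, 34 were found by name, 32 passed the filter on the mean, and all 32 were detected in all 12 libraries. Of the 27 tested beyond the 5, 21 were called lower and 1 higher at 16W, with a median log2 fold change of -1.80, where 19.9% of all unigenes, or 27.0% of those detected in all 12 libraries, were called lower and 15.3% higher. At 4W 2 of the 27 were called lower and 1 higher, where 7.22% and 4.89% of all unigenes were. With the 5 included, 26 of 32 were called lower and 1 higher at 16W. Of these 27 calls, 26 held in each of the 25 other settings of these 12 libraries that tested the gene, the exception being Cps1. Cth was tested in 24 of the 25. Every HFD library lay below every ND library for 29 of the 32 at 16W, beside 28.2% of all unigenes, and above them for 1, beside 20.4%. At 4W this held for 8 of the 32 (below) and 3 (above), beside 19.2% and 11.9% of all unigenes. Of the 32, 26 had their lowest level in HFD 16W 2, the library of the lowest median ratio, and the share over all unigenes is not given.

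**Figure D3:**
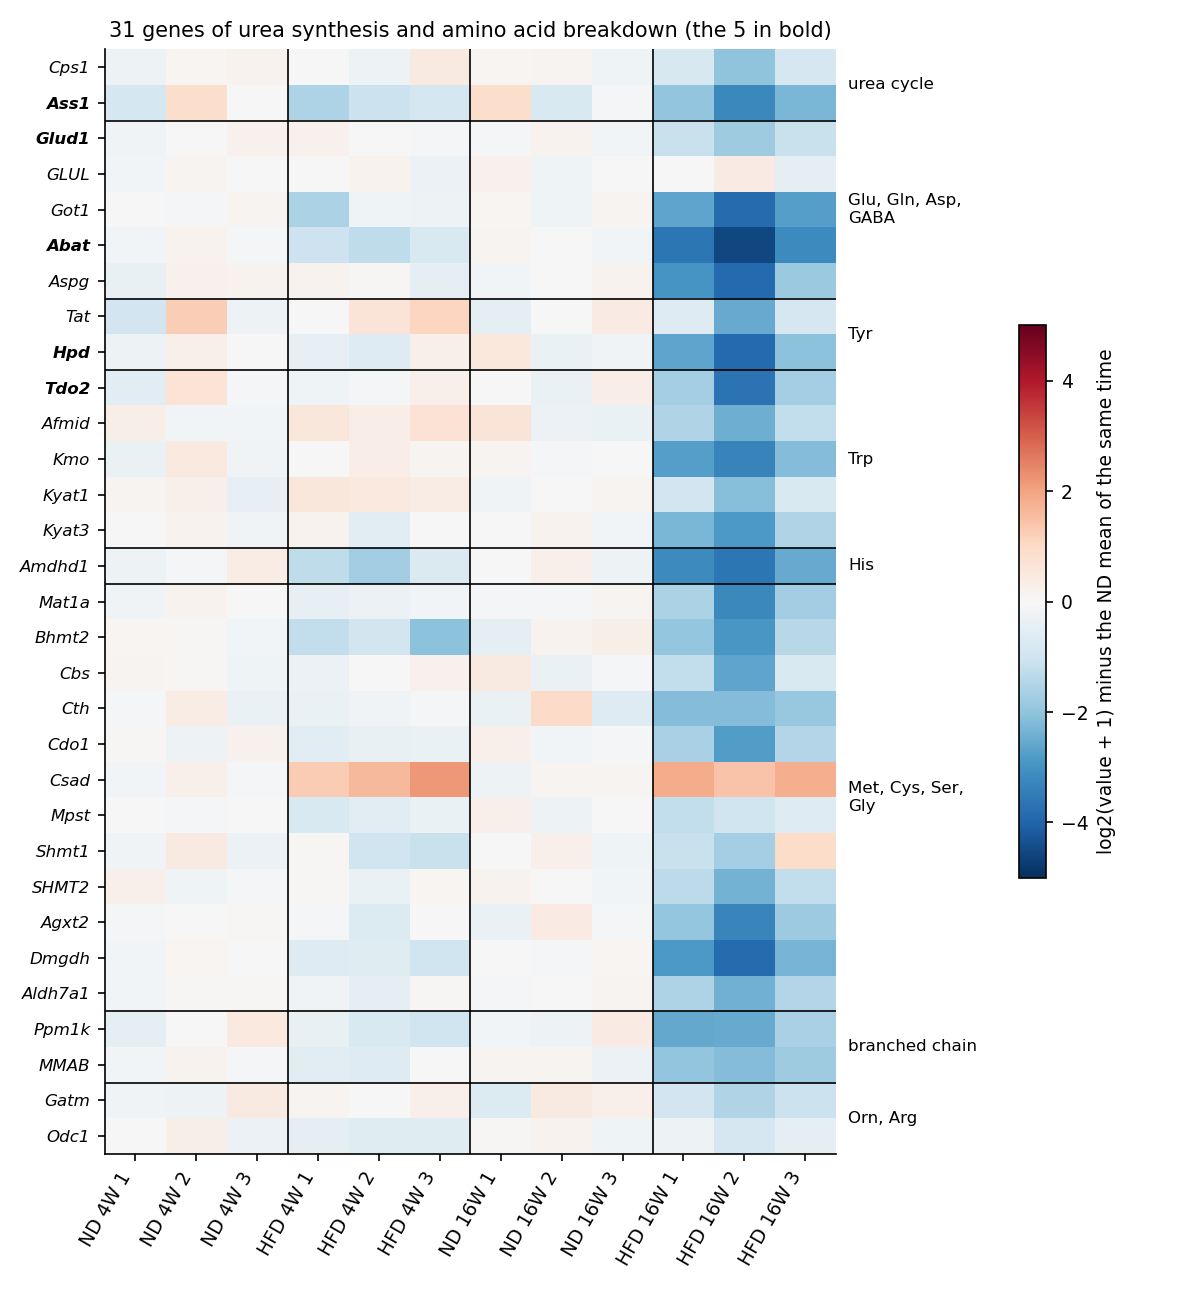
Level of 31 of the 32 genes (rows) in the 12 libraries (columns), as log2 of the value plus 1 minus the mean of the 3 ND libraries of the same time, with blue below and red above that mean. Lines divide the groups of libraries and the pathways named at the right, by the amino acids they act on, and the 5 genes are in bold. The 3 columns of HFD 16W are blue in most rows, while Csad is red in all 6 HFD libraries.

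Of the urea cycle, 3 of 10 listed genes were found and 2 tested. Cps1, which encodes the mitochondrial carbamoyl-phosphate synthase that brings ammonia into the cycle, had levels of 731, 945 and 991 in ND and 875, 731 and 1189 in HFD at 4W, where the groups overlapped. At 16W its levels were 911, 945 and 731 in ND and 496, 212 and 474 in HFD, with no overlap. Cps1 fell by 1.22 at 16W (limma adjusted p = 0.02), a call that did not hold without ND 16W 1 (limma adjusted p = 0.0558), ND 16W 2 (0.0633) or HFD 16W 2 (-0.82 on the log2 scale, 0.0571). The unigene named Arg1, after the arginase that releases urea, was between 0 and 3.33 in the 12 libraries and did not pass the filter, so nothing is said of its change.

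Of the genes that handle glutamate, glutamine, aspartate and GABA, 5 of the 6 tested were called lower at 16W, Ass1, Glud1 and Abat among them. Over all unigenes 19.9% were called lower, and 27.0% of those detected in all 12 libraries. Got1, which encodes the cytosolic aspartate aminotransferase, stood at 243, 194 and 251 in ND and at 36.0, 14.8 and 33.1 in HFD at 16W, a fall of 3.08 on the log2 scale (limma adjusted p = 0.000113). Aspg, an asparaginase, fell by 2.90 (limma adjusted p = 0.000221), from 68.0, 73.9 and 84.6 in ND to 8.85, 4.17 and 19.8 in HFD. At 4W neither was called, and for both the diet difference was larger at 16W than at 4W, by -2.41 for Got1 (limma adjusted p = 0.016) and -2.83 for Aspg (0.0097). GLUL, which encodes glutamine synthetase, the enzyme that fixes ammonia in glutamine in the hepatocytes around the central vein, was the one of the 6 not called. Its levels at 16W were 143, 106 and 128 in ND and 126, 166 and 91.2 in HFD, with overlap, and its log2 fold change was -0.00 (limma adjusted p = 0.989).

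In the breakdown of tyrosine, Tat encodes the aminotransferase that precedes the step of Hpd. Tat levels at 16W were 1189, 1655 and 2138 in ND and 1031, 282 and 911 in HFD, which did not overlap, and the log2 fold change of -1.33 was not called (limma adjusted p = 0.116). Library HFD 16W 2 lay far below the other HFD libraries. Whether Hpd differed from Tat in its response was not tested.

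In tryptophan breakdown all 5 genes tested were called lower at 16W and none at 4W, beside 19.9% and 7.22% of all unigenes. Of unigenes detected in all 12 libraries 27.0% were called lower at 16W. Beside Tdo2 the genes tested were Afmid, the formamidase of the next step, Kmo, the monooxygenase that follows it, and Kyat1 and Kyat3, a pair of aminotransferases that make kynurenic acid. Kmo stood at 53.6, 44.7 and 47.7 in ND and at 6.36, 3.86 and 9.99 in HFD at 16W, a fall of 2.76 on the log2 scale (limma adjusted p = 2.89e-05). The log2 fold change was -1.73 for Afmid (limma adjusted p = 0.00142), -1.29 for Kyat1 (0.00586) and -2.22 for Kyat3 (0.000201). At 4W the HFD libraries of Afmid, at 76.2, 65.4 and 84.6, were all above the ND libraries, at 63.0, 46.4 and 46.6, with a log2 fold change of 0.53 that was not called (limma adjusted p = 0.307). The change of the diet difference from 4W to 16W was called for Afmid, Kmo, Kyat1 and Kyat3, at -2.26, -2.92, -1.77 and -2.09. For Kyat1 this call did not hold without ND 4W 3 (limma adjusted p = 0.055), ND 16W 3 (0.0536) or the HFD libraries numbered 1 (0.0634), and for Kyat3 it did not hold without the latter (0.0616).

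In the pathways of methionine, cysteine, serine, glycine and choline, 10 of 12 genes tested were called lower at 16W and 1 higher, beside 19.9% and 15.3% of all unigenes. Of unigenes detected in all 12 libraries 27.0% were called lower. Dmgdh, the dimethylglycine dehydrogenase of choline breakdown, fell most of the 12 genes, by 3.02 (limma adjusted p = 2.3e-05), from 138, 129 and 147 in ND to 18.1, 8.54 and 26.4 in HFD. Mat1a, which makes S-adenosylmethionine in liver, fell by 2.18 (limma adjusted p = 0.000901), from 875, 911 and 1031 to 312, 98.7 and 282. Cbs and Cth, the pair of transsulfuration enzymes that lead from homocysteine to cysteine, fell as well, with log2 fold changes of -1.54 (limma adjusted p = 0.00903) and -2.08 (0.00183). The level of Cth was low, at 2.71, 8.20 and 2.04 in ND and below 0.3 in the 3 HFD libraries, so the size of its fold depends on the pseudocount and ranged from -4.21 to -0.81.

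The members of that group that use cysteine went in opposite directions. Cdo1, the cysteine dioxygenase, fell by 1.96 at 16W (limma adjusted p = 0.000573), from 414, 312 and 322 in ND to 112, 48.8 and 125 in HFD, and was not called at 4W (-0.42, limma adjusted p = 0.426). Csad encodes the decarboxylase that acts after Cdo1 on the way to taurine, which liver joins to bile acids. Its levels were 7.32, 9.93 and 7.72 in ND and 21.5, 27.8 and 40.7 in HFD at 4W. At 16W they were 8.24, 10.9 and 11.1 in ND and 38.9, 28.4 and 38.1 in HFD. Every HFD library was above every ND library at both times, and Csad rose by 1.70 on the log2 scale at 4W (limma adjusted p = 0.000753) and by 1.70 at 16W (0.000198), in all 25 other settings too. It was the only one of the 32 genes called higher at either time.

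Bhmt2, a methyltransferase that makes methionine, and Amdhd1, an enzyme of histidine breakdown, were, with Abat, the genes called lower at 4W. Amdhd1 fell at both times, with log2 fold changes of -1.24 at 4W (limma adjusted p = 0.0231) and -3.11 at 16W (2.63e-05). Its levels were 21.1, 24.1 and 33.2 in ND and 9.92, 7.07 and 15.2 in HFD at 4W, and 28.0, 33.1 and 23.2 in ND and 2.16, 1.35 and 4.03 in HFD at 16W. Those of Bhmt2 were -1.41 at 4W (limma adjusted p = 0.0365) and -2.08 at 16W (0.00165). The 4W calls were not stable. That of Amdhd1 did not hold without ND 4W 2 (limma adjusted p = 0.0509), ND 4W 3 (0.0874), HFD 4W 1 (0.0508) or HFD 4W 2 (0.085), and that of Bhmt2 in 12 of the 25 other settings. The count of genes called at 4W, 4 of 32, became 2 without ND 4W 1, ND 4W 3, HFD 4W 2, HFD 4W 3 or ND 16W 2 and 1 without ND 4W 2 or HFD 4W 1.

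The remaining genes called lower at 16W were Agxt2 (-2.35 on the log2 scale), which acts on glyoxylate and on beta-amino acids, SHMT2 (-1.63), the mitochondrial serine hydroxymethyltransferase, Mpst (-0.96), which takes sulfur from mercaptopyruvate, and Aldh7a1 (-1.80), a dehydrogenase of lysine breakdown. They also included both genes tested of the branched-chain and propionate pathways, Ppm1k (-2.23), the phosphatase that activates the branched-chain dehydrogenase, and MMAB (-1.97), which makes the cobalamin cofactor of methylmalonyl-CoA mutase. Gatm (-1.17), the first enzyme of creatine synthesis, completes them. Shmt1, the cytosolic serine hydroxymethyltransferase, was at -0.64 (limma adjusted p = 0.42) and Odc1, the ornithine decarboxylase, at -0.51 (0.0547).

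**Figure D4:**
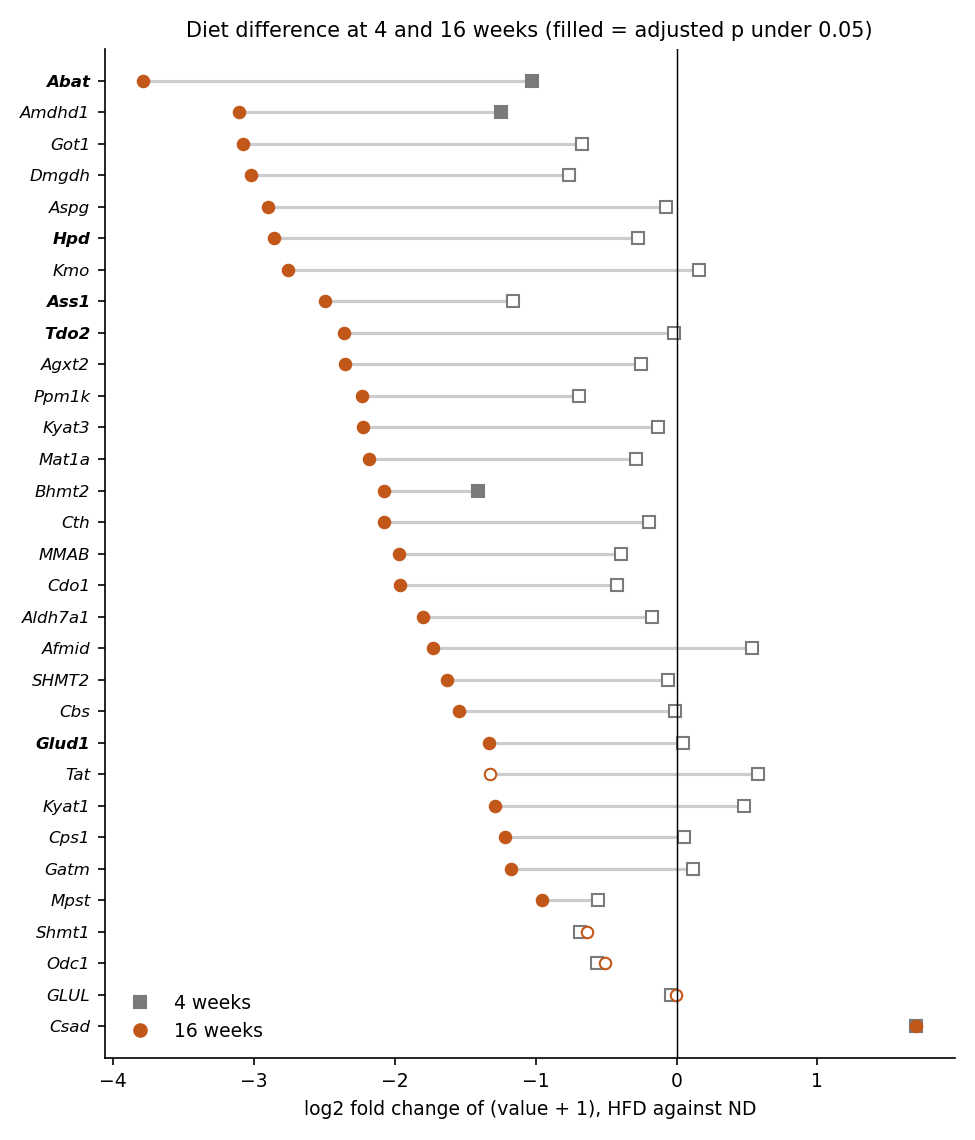
Log2 fold change of the value plus 1 in HFD against ND (x axis) for 31 of the 32 genes (y axis, ordered by the 16-week value), as grey squares at 4 weeks and orange circles at 16 weeks, filled where the adjusted p was under 0.05. The 16-week values reach from -3.79 for Abat to 1.70 for Csad, where the square and the circle coincide, and 4 squares and 27 circles are filled.

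The change of the diet difference from 4W to 16W was called for 17 of the 32, in each towards a lower level in HFD at 16W, with a median over the 32 of -1.60 beside -0.06 over all unigenes. In that test 4.61% of all unigenes were called lower and 5.5% higher. Within the HFD 19 of 32 were called lower at 16W than at 4W and none higher, with a median of -1.22 beside -0.10 over all unigenes. For that comparison 7.78% of all unigenes were called lower and 9.19% higher. On the normal diet limma called none of the 32 between the times, and 8 of 32 had an unadjusted p under 0.05, as had 16.3% of all unigenes. Their median in ND was 0.28, beside -0.05 over all unigenes. The count of 17 was 8 without the HFD libraries numbered 1.

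Stellate and macrophage markers were at higher summed levels in HFD than in ND at both times. The summed level of the 6 stellate cell and myofibroblast markers found of 18 was 27.8 to 40.2 in ND 16W libraries and 713 to 1587 in HFD 16W libraries, and 34.9 to 36.9 against 78.6 to 96.6 at 4W. All 6 were called higher at 16W, beside 15.3% of all unigenes. The call of Reln (0.48 on the log2 scale) did not hold without ND 16W 1 (limma adjusted p = 0.0879), ND 16W 3 (0.0709), HFD 16W 1 (0.0888) or HFD 16W 2 (0.0631). Col1a1, a chain of type I collagen, was highest in HFD 16W 2, at 572 against 226 and 263 in the other HFD 16W libraries, and this is the library in which the 5 genes were lowest. The summed level of the 4 macrophage markers detected in all 12 libraries, of 8 found on a list of 24, was 32.8 to 48.3 in ND and 1497 to 1870 in HFD at 16W. At 4W it was 11.3 to 21.5 in ND and 106 to 139 in HFD. In that sum Cd68, Itgax and Gpnmb rose at 16W, while Cd5l, a marker of resident macrophages, fell by 3.73 on the log2 scale (limma adjusted p = 0.00091). At 4W Cd5l was called higher instead, by 3.38, at 54.1, 62.8 and 38.2 in HFD and 9.10, 0.55 and 6.83 in ND. Most of the HFD 16W sum was Gpnmb, at 1522, 1522 and 1263. Lgals3 of the same list was tested but not called at either time. Its levels at 16W were 1.6, 7.7 and 5.6 in ND and 78.7, 215 and 0 in HFD. At 4W they were 2.9, 2.0 and 9.3 in ND and 12.3, 0 and 0 in HFD. Another unigene of that name was above the lowest value in 5 of the 12 libraries, all ND, and at 0 in every HFD library. C1qc, CD163 and Cd9 of the same list did not pass the filter on the mean and went different ways. C1qc, a complement gene of macrophages, was above the lowest value in 4 of the 12 libraries, none of them HFD 16W. CD163 was above it in 2 of the 12, the HFD libraries numbered 1, and Cd9 in 4 of the 12, all HFD. Of the endothelial markers 3 of 12 were found, and none of the 2 tested was called at 16W by limma, nor had either an unadjusted p under 0.05. At 4W 1 of the 2, Ptprb, was called higher (0.96 on the log2 scale, limma adjusted p = 0.0245), a call that did not hold without ND 4W 1 (0.0931), ND 4W 3 (0.0918), HFD 4W 1 (0.057), HFD 4W 2 (0.0521) or HFD 4W 3 (0.0735). Of the lymphocyte and neutrophil markers 2 of 16 were found, with a summed level of 1.72 to 8.19 in ND and 3.16 to 21.1 in HFD at 16W, and limma called neither, nor had either an unadjusted p under 0.05. The part of these cells in the fall of the 5 genes was not tested.

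These pathways run mainly in hepatocytes. Of the 7 hepatocyte markers detected in all 12 libraries, 2 were called lower at 16W, F9, which encodes coagulation factor IX (-2.42 on the log2 scale, limma adjusted p = 0.000366), and Itih4, which encodes a plasma protease inhibitor chain (-1.24, 0.0352), and 5 were not called. This count of 2 of 7 stands beside 27.0% of all unigenes detected in all 12 libraries that were called lower. Itih4 was no longer called without ND 16W 2 (limma adjusted p = 0.0754), ND 16W 3 (0.134), HFD 16W 1 (0.0724) or HFD 16W 2 (0.13). Of the 7, 6 had a negative log2 fold change, and the median over the 7 was -0.78, beside -2.50 for the 5 genes. Apob, the protein of very low density lipoprotein, stood at 104, 134 and 134 in ND and at 194, 59.0 and 178 in HFD at 16W (0.05, limma adjusted p = 0.935). Another tested unigene named Apob was low, at 1.62, 2.52 and 2.71 in ND and 1.83, 0.09 and 0.40 in HFD at 16W. Albumin itself was at the highest value of the table in HFD 16W 3 and below it in HFD 16W 1 and 2 (-1.38, limma adjusted p = 0.574), and such fixed values at the top limit what its fold can show. The summed level of the 7, most of it ALB, was 30720 to 38660 in ND and 7396 to 32630 in HFD at 16W, and 30160 to 35560 in ND and 10460 to 32000 in HFD at 4W. None of the 7 was called at 4W by limma, and none had an unadjusted p under 0.05.

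**Figure D5:**
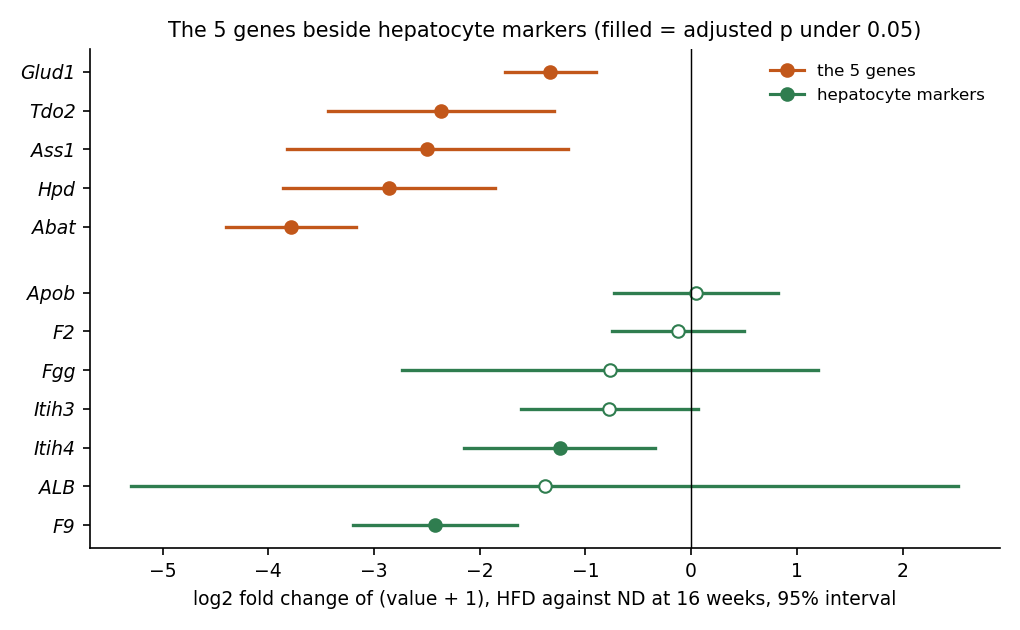
Log2 fold change of the value plus 1 in HFD against ND at 16 weeks (x axis), with its 95% interval from limma, for the 5 genes (orange) and the 7 hepatocyte markers detected in all 12 libraries (green). Filled points had an adjusted p under 0.05. All 5 genes and 2 of the 7 markers, F9 and Itih4, are filled, and the widest interval is that of ALB.

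Of listed liver amino acid transporters 3 of 24 were found, and of listed regulators of these genes 3 of 20. Slc16a10, a carrier of aromatic amino acids, fell by 2.11 at 16W (limma adjusted p = 3.11e-05), from 11.2, 9.68 and 13.7 in ND to 2.24, 1.37 and 2.08 in HFD. Slc38a3, a glutamine carrier of hepatocytes, fell by 1.28 (limma adjusted p = 0.0358), a call that was lost without any of ND 16W 1 (0.0654), ND 16W 2 (0.0935), ND 16W 3 (0.0801) or HFD 16W 2 (-0.66, 0.0691). Slc7a7, a subunit of a carrier of basic amino acids that macrophages also express, went the other way and rose by 0.81 at 4W (limma adjusted p = 0.0134) and by 1.99 at 16W (1.39e-05). Its 4W call did not hold in the fit without ND 4W 1, where the limma adjusted p was 0.0508. Nr1i3, a nuclear receptor of hepatocytes, fell by 4.11 at 16W (limma adjusted p = 5.89e-06). Atf4, a transcription factor of the amino acid response, rose by 0.86 at 16W (limma adjusted p = 0.00987), and Creb3l3, a transcription factor of liver, rose by 1.15 at 4W (0.0482) and was at -0.65 at 16W (0.16). The 4W call of Creb3l3 was lost in 15 of the 25 other settings, and without ND 4W 3 its adjusted p was 0.149.

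The named unigenes whose levels over the 12 libraries were most like those of each gene were found among 2165 candidates detected in every library and on no list of these pathways, by Pearson's r of log2 values. These are descriptions over 12 libraries that share the 4 groups and 1 normalization, with no test. For Ass1 they were MNCb-2990 (0.977), MED8 (0.949) and Cyp3a11 (0.94), and for Hpd METTL7A (0.974), Sord (0.972) and Cyp2f2 (0.968). Those of Tdo2 were Adh6 (0.939), Klkb1 (0.926) and Faah (0.926). Abat was nearest to HOOK1 (0.99), Ebp (0.986) and Dpyd (0.986), and Glud1 to Akr1c21 (0.978), AKR1C23 (0.97) and Sult1e1 (0.969). All 15 had a negative log2 fold change at 16W, from -0.82 for MNCb-2990 to -3.50 for Adh6. That direction follows from how they were picked, by likeness to genes that were low in HFD 16W, and is no separate result. Values of Cyp and Akr1c family members are uncertain as to the copy, since close copies can share reads in a transcript assembly.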

How the data were processed

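Poly(A) RNA of livers with an RNA integrity number above 7 was sequenced, and Trinity 2.4.0 assembled the reads without a genome, per the labels' protocols. The submitters' processing notes also name Salmon and edgeR, without giving a version or a role. The deposited signal values are expression levels normalized by the authors. Sorted, the 18 libraries hold nearly the same values, each summing to 158000 and reaching 28800. Depth is therefore unknown, and no counting interval or floor is given. Of 153 pairs of libraries 0 were identical. The labels count 36 gerbils (6 per group) in the treatment text but 18 in the design text. The sources used here do not say if a library is 1 animal or a pool, so SD and p-values measure the spread between libraries, which may be technical.

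Libraries of 8 weeks had a Pearson's r of 0.00114 to 0.032 with the other 12 (72 pairs, across unigenes) and 0.702 to 0.785 among replicates, and were left out. From the deposited values log2(value + 1) was computed and modelled as 4 group means in limma 3.58.1 (R 4.3.3, intensity trend, no block), for unigenes with a mean of at least 1. Values of 1 listed gene are not reported here. The fitting script was tested on simulated data. Names were matched in any letter case. Of the named unigenes 3008 have a name found in the RefSeq gerbil annotation (Bangor_MerUng_6.1, names only), as have all 5 genes. The 5 genes and the lists were chosen with earlier results of these data known. Genes named are the 5, those of the lists called in a diet contrast, those of the urea cycle, and cell markers. For likeness the 3 nearest unigenes of each of the 5 are named. The same-cluster unigenes of Abat, Hpd and Glud1, and the genes of the lists named as not called, were chosen after their values were seen.

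Replicate numbers are shared by the groups. Deviations of same-numbered libraries correlated at -0.0244 to -2.29e-05 between ND and HFD of 1 time, and at -0.00873 to 0.0357 between the times in ND. Between the times in HFD they correlated at 0.117 to 0.397, in 3 of 3 pairs above 0.1, so the numbers pair libraries for that comparison alone, by the data and not by the labels. The alternatives were other pseudocounts (0.1 and 5), no filter and a mean of at least 5, median-ratio rescaling, a replicate block, each library left out, each time fitted alone, no trend, a library-set term in HFD, no HFD libraries numbered 1, and all 18 libraries. The fit of all 18 takes in 8-week values that do not follow the names, so it is kept out of the counts of settings and ranges. A block within HFD and a restriction to unigenes detected in all 12 libraries were added after seeing the data.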

Additional observations from a re-analysis of the deposited data

Results flagged for a closer look

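For 17 of the 32 pathway genes tested, the log2 fold change of HFD against ND differed between 16W and 4W by limma's test of that difference, and all 17 were lower at 16W. Over all unigenes 4.61% were called lower and 5.5% higher in this test. Among the 5 genes described, those called were Abat (-2.761), Hpd (-2.581) and Glud1 (-1.379). In the handling of aspartate and asparagine they were Got1 (-2.406) and Aspg (-2.827). In tryptophan breakdown they were Afmid (-2.262), Kmo (-2.919), Kyat1 (-1.767) and Kyat3 (-2.091), and in histidine breakdown Amdhd1 (-1.864). In the pathways of sulfur amino acids, serine and glycine they were Mat1a (-1.895), Cdo1 (-1.545), SHMT2 (-1.57), Agxt2 (-2.101) and Dmgdh (-2.258). In those of lysine and of propionate they were Aldh7a1 (-1.624) and MMAB (-1.576). Without the HFD libraries numbered 1, 8 of the 17 were still called, and those lost were Hpd (limma adjusted p = 0.0866), Aspg (0.0579), Kyat1 (0.0634), Kyat3 (0.0616), Amdhd1 (0.087), Mat1a (0.0574), Cdo1 (0.0812), SHMT2 (0.063) and Agxt2 (0.0584). Some calls were also lost with 1 library left out, in fits that hold fewer libraries, and why was not tested. The call of Mat1a was lost without any 1 of the libraries ND 4W, HFD 4W and ND 16W (limma adjusted p from 0.0539 to 0.0889). That of Cdo1 was lost without any 1 of the same libraries (limma adjusted p from 0.0647 to 0.0938) or HFD 16W 1. The limma adjusted p of SHMT2 rose to 0.0527 when HFD 4W 1 was left out, 0.0533 for ND 4W 3, 0.0539 for ND 16W 1 and 0.056 for HFD 4W 3. Agxt2 was lost without HFD 4W 3 (limma adjusted p = 0.051) or ND 16W 2 (0.0535), Amdhd1 without ND 4W 1 (0.0523) or ND 16W 2 (0.0539), and Kyat1 without ND 4W 3 (0.055) or ND 16W 3 (0.0536). For Hpd these were ND 4W 1 (limma adjusted p = 0.0623), ND 4W 3 (0.0563), HFD 4W 1 (0.0503), HFD 4W 3 (0.065) and ND 16W 1 (0.0605).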

How the results depend on the processing

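Over 25 alternatives on the 12 libraries the 5 genes were called lower at 16W in each, with the smallest change at -1.11 (Glud1), and their counts in the other contrasts changed as follows. At 4W the count of the 5 genes called, 1, fell to 0 with a pseudocount of 0.1, median-ratio rescaling, limma without a trend or no HFD libraries numbered 1, and was 0 to 1 with 1 library left out; the call lost is that of Abat, and the fits without a library hold fewer samples. For the 32 pathway genes the 4W count of 4 became 2 with a pseudocount of 0.1, rescaling or no trend, 1 without the HFD libraries numbered 1, and 1 to 6 with 1 library left out. Their count of 17 for the difference between the times became 8 without the HFD libraries numbered 1. The 4W value of Tdo2, -0.02, became 0.18 with rescaling, 0.079 without the HFD libraries numbered 1 and -0.31 to 0.32 with 1 library left out. That of Glud1, 0.05, became -0.036 without the HFD libraries numbered 1 and -0.043 to 0.15 with 1 library left out. The cause of these changes was not tested. Of 610 alternative values of the 5 genes 572 kept direction and side of the threshold, 18 lost a call, 12 gained one and 8 changed sign, and of 2667 of other called genes 2517 kept both, 150 lost a call and 0 changed sign.

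Counts of all unigenes moved further. At 4W 1149 became 613 with a mean of at least 5 and 710 (without HFD 4W 3; 747 without ND 4W 1) to 1194 with 1 library left out. At 16W 3340 became 1158 with a mean of at least 5 and 1908 among unigenes detected in all 12 libraries, where fewer unigenes are tested. For the difference 959 became 455 without the HFD libraries numbered 1 and 590 (without HFD 16W 2) to 940 with 1 library left out. In HFD over time 1610 became 914 with a mean of at least 5, 931 without the HFD libraries numbered 1 and 981 (without HFD 16W 2) to 1693 with 1 left out. In ND over time 36 became 56 and 149 with pseudocounts of 0.1 and 5, 14 with no filter, 125 with a mean of at least 5, 22 without a trend, 12 without the HFD libraries numbered 1, 150 among unigenes detected in all 12, and 0 (without ND 16W 2) to 233 (without ND 4W 2) with 1 left out. With the replicate block the 5 genes gave 1, 5, 3, 3 and 0 calls in the 5 contrasts, the same as without it, and the 32 genes gave 3, 27, 16, 19 and 0; all unigenes gave 1025, 3262, 816, 1509 and 19. Within HFD the block gave 11 in ND over time. The fit of all 18 libraries gave 2 of the 32 genes at 4W and 11 for the difference, and 654 and 507 of all unigenes; it takes in 8-week values that do not follow the names, so it says nothing about stability. Normalization to shared values and unknown depth limit every fold to a change of rank.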
